A study of Mus musculus with 4 samples.

Results

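The genes described here are the T cell-attracting chemokines Cxcl9, Cxcl10, Cxcl11 and Cxcl16, their receptors Cxcr3 and Cxcr6, and the tryptophan-degrading enzyme gene Ido1. They were taken by symbol from the gene lists of 4 single-cell RNA libraries of mouse mammary tumour formation, and 6 of the 7 genes named, out of 27998 gene names shared by the libraries, gave values. Cxcl11 was not analysed here.

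The chemokines CXCL9 and CXCL10 are secreted proteins made by many cell types after exposure to interferon gamma, and both bind the receptor CXCR3, which is carried by activated T cells and natural killer cells. CXCL16 differs from them in that it is made as a membrane protein, which the protease ADAM10 can release, and it binds CXCR6, a receptor known from T cells that stay resident in tissues. IDO1 converts tryptophan into the kynurenine pathway, is also induced by interferon gamma, and is known for restraining T cells. Ligand and enzyme were therefore looked for in epithelial and myeloid cells, and the receptors in T cells.

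The libraries came from female mice of mixed strain background with floxed Trp53 and Brca1 and a YFP reporter at Rosa26. Cre was given into the mammary ducts by an adenovirus carrying a keratin 8 promoter, so recombination was directed to luminal epithelial cells. The 2 weeks library held sorted YFP+ mammary cells taken about 2 weeks after injection, the 5 months library held YFP+ mammary cells together with sorted CD45+ leukocytes taken about 5 months after injection, and the libraries tumour 1 and tumour 2 held live DAPI-negative cells of tumours. All groups carried the same floxed alleles and received the virus, so no library is an untreated control. How many mice went into a library, and how YFP+ and CD45+ cells were mixed, is not in the labels. Leukocytes were not sorted at 2 weeks, and the share of each cell type at 2 weeks and at 5 months follows the sort.

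After filtering, 1286 cells remained at 2 weeks, 4487 at 5 months, 2583 in tumour 1 and 1740 in tumour 2, with a median of 4134.5, 2140.0, 6974 and 6396.5 unique molecular identifiers (UMIs, each counting 1 captured RNA molecule) per cell. The libraries shared between 2 and 16 cell barcodes per pair, at most 0.590% of the smaller library. Cells were gated by their own counts. The epithelial gate took cells with at least 3 UMIs of the luminal keratins Krt8 and Krt18 and none of the leukocyte gene Ptprc, and held 1118, 420, 389 and 412 cells. The Tyrobp gate took cells with at least 3 UMIs of Tyrobp, an adaptor of myeloid and natural killer cells, and held 5, 758, 1987 and 784 cells. The Cd3e gate took cells with at least 1 UMI of the T cell receptor subunit Cd3e and held 3, 1359, 24 and 136 cells.

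The gates were checked against markers that did not define them. Leukocyte markers summed to 1.92 CPM (UMIs of a gene for every 1000000 UMIs summed over the cells) in the epithelial gate at 2 weeks and to between 39.2 and 70.4 CPM in the other libraries, with Ptprc at 0 by the gate itself, against 2198 to 2861 CPM in the Tyrobp gate of the 5 months and tumour libraries. Macrophage markers in the epithelial gate summed to 5.00 CPM at 2 weeks, 31.6 at 5 months, 478 in tumour 1 and 103 in tumour 2. In tumour 1, 69 of the 389 epithelial gate cells also met the Tyrobp rule, and in tumour 2, 35 of 412. The T cell markers summed to 1284 CPM in the Cd3e gate of tumour 1, 1360 in tumour 2 and 1612 at 5 months, beside 7053, 2368 and 1002 CPM of macrophage markers.

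The promoter sequences of the interferon-inducible chemokine pair are shown first because these neighbouring genes of chromosome 5 move together in part of the results and apart in the rest. They are the 250 bases before and 50 bases after the transcript start, from RefSeq on GRCm38.p6, both read along the minus strand, at chr5:92328030-92328329 for Cxcl9 and chr5:92348840-92349139 for Cxcl10. Capitals mark matches to 2 motifs searched on both strands, the interferon-stimulated response element in the form GAAA, any 2 bases, GAAA and the NF-kB consensus.

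Cxcl9: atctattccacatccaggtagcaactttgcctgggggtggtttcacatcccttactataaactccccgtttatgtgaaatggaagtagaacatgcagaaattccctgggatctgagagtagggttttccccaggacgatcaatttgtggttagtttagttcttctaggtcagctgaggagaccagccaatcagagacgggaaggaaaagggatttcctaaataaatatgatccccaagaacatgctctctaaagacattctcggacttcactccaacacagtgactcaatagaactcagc

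Cxcl10: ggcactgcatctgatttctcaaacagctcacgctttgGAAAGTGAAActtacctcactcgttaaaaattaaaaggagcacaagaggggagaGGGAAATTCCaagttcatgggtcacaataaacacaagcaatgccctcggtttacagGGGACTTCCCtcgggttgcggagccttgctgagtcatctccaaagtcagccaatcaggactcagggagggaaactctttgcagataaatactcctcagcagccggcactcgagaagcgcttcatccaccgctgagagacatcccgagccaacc

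The Cxcl10 window held 1 interferon-stimulated response element, at bases 38 to 47, and 2 matches to the NF-kB consensus, at bases 92 to 101 and 148 to 157, which do not overlap each other. The Cxcl9 window held neither motif, nor the GAS motif TTCNNNGAA, which says only that these letters are not in the 300 bases shown. Of 32851 mouse promoters of the same length in the RefSeq table, 3.44% held the response element, 4.51% the NF-kB consensus and 8.30% the GAS motif. The promoters of 4 of the genes, Cxcl9, Cxcl10, Cxcr3 and Cxcr6, were found in that table.

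On GRCm38, the build of the deposited counts, Cxcl9 lies at chr5:92321347-92328079 and Cxcl10 at chr5:92346638-92348889, both on the minus strand. The Cxcl10 gene lies inside Art3 on the plus strand over all of its 2252 bases. Ido1 is at chr8:24584136-24597009 on the minus strand. Cxcl16 is at chr11:70453983-70459984 on the minus strand and overlaps Zmynd15 on the plus strand by 552 bases. Cxcr3 is at chrX:101731535-101734269 on the minus strand, and Cxcr6 is at chr9:123806475-123811760 on the plus strand, inside Fyco1 on the minus strand. Whether the counting used strand is not given in the sources used here, so reads of Cxcl10, Cxcl16 and Cxcr6 are uncertain to the extent that the overlapping gene shares them.

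At 2 weeks the epithelial cells themselves carried Cxcl9, Cxcl10 and Ido1. Cxcl9 had 3209 UMIs in the gate, a level of 617 CPM (95% interval 596 to 639), and was seen in 300 of 1118 cells. Its level was 0.97 CPM (0.12 to 3.51) at 5 months from 2 UMIs, 4.46 CPM (2.99 to 6.40) in tumour 1 from 29 UMIs and 1.05 CPM (0.29 to 2.68) in tumour 2 from 4 UMIs. The 2 weeks library thus stood above the other libraries with no overlap of intervals, tumour 1 stood next but its interval met that of 5 months, and 5 months and tumour 2 could not be told apart. Intervals on CPM are exact Poisson intervals and intervals on shares of cells are exact Clopper-Pearson intervals, and both cover counting error only.

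Cxcl10 followed another order. It had 286 CPM (272 to 301) at 2 weeks from 1487 UMIs, 10.7 CPM (6.70 to 16.2) at 5 months from 22 UMIs, 102.2 CPM (94.6 to 110.3) in tumour 1 from 665 UMIs and 35.8 CPM (30.1 to 42.4) in tumour 2 from 137 UMIs. All 4 intervals were apart, with 2 weeks highest, the tumours in between and 5 months lowest. Ido1 had 143 CPM (133 to 154) at 2 weeks from 745 UMIs in 265 cells, 1.46 CPM (0.30 to 4.26) at 5 months from 3 UMIs, and no UMI in 389 cells of tumour 1 or 412 cells of tumour 2, which allows shares of cells with a UMI of up to 0.771% and 0.728%.

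Cxcl16 showed neither order. It was read in epithelial cells of every library, at 94.0 CPM (85.9 to 102.7) at 2 weeks, 148 CPM (132 to 166) at 5 months, 73.8 CPM (67.3 to 80.7) in tumour 1 and 101.5 CPM (91.7 to 112.1) in tumour 2, so the highest level was 5 months and the levels of 2 weeks and tumour 2 were not apart. The receptors were close to absent from the epithelial gate. Cxcr3 had no UMI in the 4 libraries, and Cxcr6 had 8, 1, 6 and 1 UMIs.

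**Figure D1:**
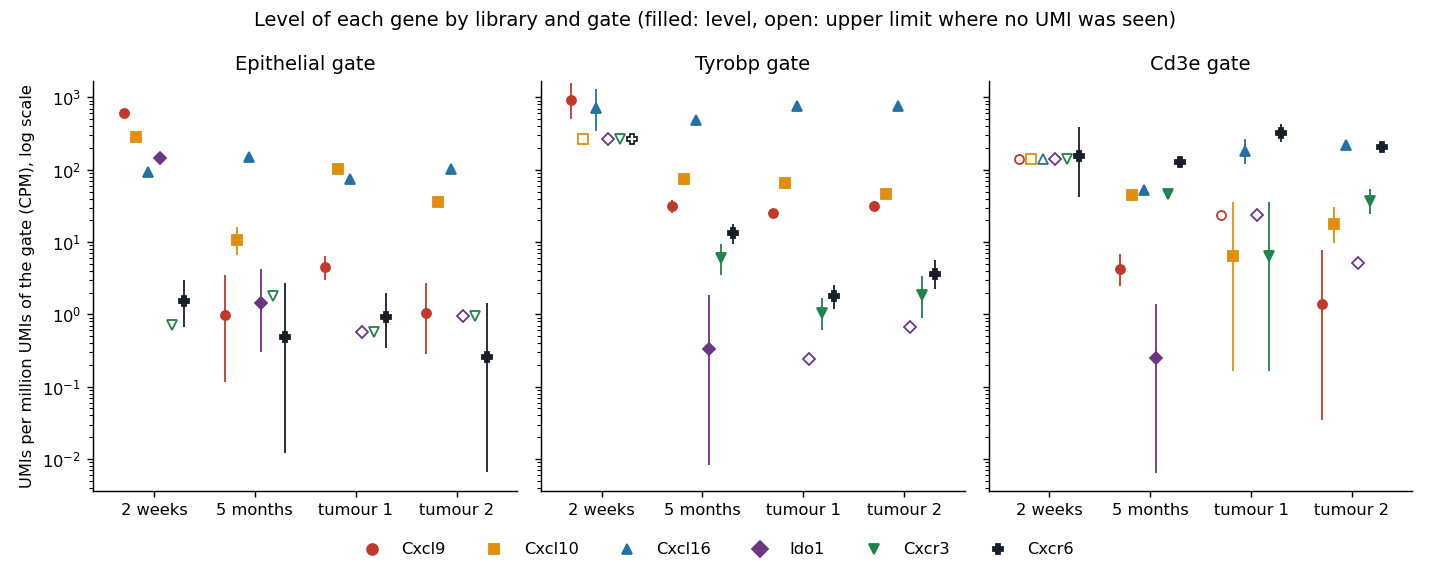
Level of each of the 6 genes, in CPM of the gate on a log axis, in the 4 libraries (x axis) for the epithelial, Tyrobp and Cd3e gates. Filled symbols are levels, bars are 95% Poisson intervals, and open symbols are the upper limit where no UMI was seen; at 2 weeks the Tyrobp and Cd3e gates hold 5 and 3 cells. Cxcl9, Cxcl10 and Ido1 stand at 617, 286 and 143 CPM in epithelial cells at 2 weeks, Cxcl16 stays between 73.8 and 148 CPM there, and Cxcl16 reaches 495 to 766 CPM in the Tyrobp gate of the later libraries.

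The first comparison asked which of these genes differed in the epithelial gate between tumours and the earlier libraries. Cxcl9 was lower in tumours than at 2 weeks, with a log2 difference of -7.61 (SE 0.85, adjusted p = 0.0352 by edgeR's quasi-likelihood test with Benjamini-Hochberg adjustment). Ido1 was lower by the same test (adjusted p = 0.0321), and since both tumours had no UMI its level there was at least 493-fold lower, with 3 counts set as the floor over both tumours. Cxcl10 had a log2 difference of -1.93 (SE 0.70, adjusted p = 0.269) and Cxcl16 one of -0.02 (SE 0.51, adjusted p = 0.991), and neither passed. Thus 2 of the 4 genes that passed the low-count filter were called, both lower, beside 0.797% of 12291 genes called, 0.374% higher and 0.423% lower. With suspected doublets kept no gene was called, with 1883 genes at an unadjusted p under 0.05, and the adjusted p was 0.0979 for Cxcl9 and 0.0526 for Ido1. The labels do not say that the tumours came from separate mice, so p-values measure the spread between these samples, which may be technical.

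Against 5 months, 0 of the same 4 genes passed in tumours, beside 0.106% of 12291 genes called. The log2 differences were +1.499 for Cxcl9 (SE 1.28, adjusted p = 0.833), +2.64 for Cxcl10 (SE 0.88, adjusted p = 0.468) and -0.84 for Cxcl16 (SE 0.50, adjusted p = 0.726) by edgeR. Ido1, with 3 UMIs at 5 months and none in the tumours, had an adjusted p of 0.361. Without the low-count filter Cxcl10 passed as higher (log2 difference +2.71, adjusted p = 0.00954 by edgeR) and Ido1 as lower (adjusted p = 0.0355). Calls were more common with that setting, at 565 of 17749 genes, 277 higher and 288 lower.

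Between 5 months and 2 weeks, with 1 library each and no test, Cxcl9, Cxcl10 and Ido1 were past 2-fold at 5 months, with log2 differences of -8.17, -4.46 and -5.74 (1 CPM added, at least 20 CPM in the higher library). Cxcl16 differed by +0.82 and was not. Of all 5886 genes compared, 29.1% were past that fold and 12.9% were lower at 5 months, so a lower value between these libraries was common.

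The epithelial gate held different luminal cells at different times. Hormone-sensing markers, the genes of estrogen- and progesterone-responsive luminal cells, summed to 3647, 380, 82.1 and 311 CPM from 2 weeks to tumour 2, and luminal progenitor or alveolar markers to 1579, 27165, 5827 and 9191 CPM. Cells were therefore also grouped by which of these marker lists led, with at least 2 UMIs. At 2 weeks, 925 cells led with hormone-sensing markers and 154 with progenitor markers, while hormone-sensing cells numbered 36 at 5 months, 5 in tumour 1 and 17 in tumour 2.

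At 2 weeks Cxcl9 and Cxcl10 were higher in progenitor-marker cells, and Ido1 was higher in hormone-sensing cells. Cxcl9 had 1238 CPM (1162 to 1317) in progenitor-marker cells, where 39.6% of cells had a UMI, and 446 CPM (426 to 467) in hormone-sensing cells, where 24.1% had one. Cxcl10 had 832 CPM (771 to 898) in progenitor-marker cells and 146 CPM (135 to 158) in hormone-sensing cells. Ido1 went the other way, at 34.6 CPM (23.0 to 49.98) in progenitor-marker cells, from 28 UMIs in 5 cells, and 162 CPM (150 to 175) in hormone-sensing cells, from 689 UMIs in 254 cells. Cxcl16 had 142 CPM in progenitor-marker cells and 83.6 CPM in hormone-sensing cells. Each of these is 1 library, and the groups were not tested.

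Within progenitor-marker cells alone, Cxcl9 had 5.44 CPM in tumour 1, 0.90 in tumour 2 and 1238 at 2 weeks, and was called lower in tumours again (log2 difference -8.31, SE 0.96, adjusted p = 0.0493 by edgeR). Ido1 was not called there (adjusted p = 0.111), with 28 UMIs at 2 weeks and none in the tumours. Among hormone-sensing cells, where Ido1 mostly lay at 2 weeks, the 36 cells of 5 months had 3 Ido1 UMIs, a level of 15.9 CPM (3.28 to 46.5), below the 162 CPM of 2 weeks, and the 17 cells of tumour 2 had none (upper limit 12.1 CPM). The 5 hormone-sensing cells of tumour 1 had none either, with an upper limit of 30.9 CPM. The grouping by markers was added after the values had been seen.

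**Figure D2:**
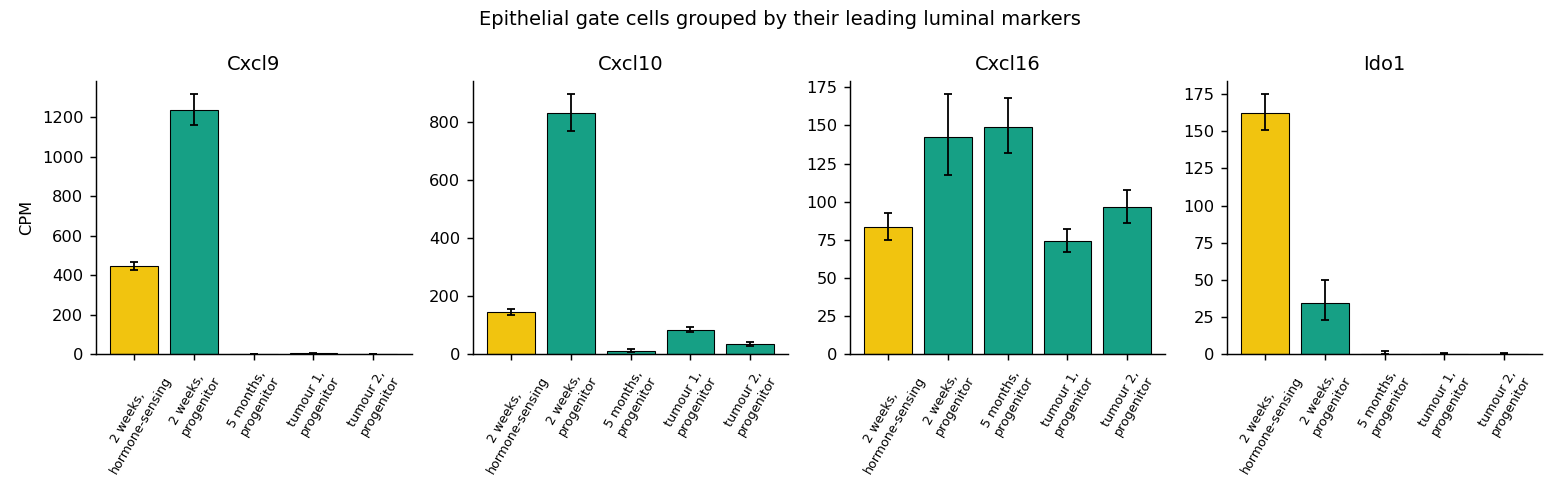
Level of Cxcl9, Cxcl10, Cxcl16 and Ido1 (y axis, CPM, linear, 1 scale per panel) in epithelial gate cells that led with hormone-sensing markers (yellow, 2 weeks) or progenitor markers (green, 2 weeks, 5 months, tumour 1 and tumour 2). Bars are levels with 95% Poisson intervals. Cxcl9 and Cxcl10 are highest in progenitor-marker cells at 2 weeks (1238 and 832 CPM), Ido1 is highest in hormone-sensing cells at 2 weeks (162 CPM), and Cxcl16 stays between 74.1 and 149 CPM in progenitor-marker cells of the 4 libraries.

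The chemokine RNA was unevenly spread over cells. At 2 weeks, the 56 epithelial cells with the most UMIs of a gene, 5% of the gate, held 65.1% of the Cxcl9 UMIs and 88.6% of the Cxcl10 UMIs, with up to 114 Cxcl9 and 116 Cxcl10 UMIs in 1 cell. They held 50.5% of the Ido1 UMIs and 38.7% of the Cxcl16 UMIs, with at most 14 and 9 UMIs in 1 cell. In tumour 1, 20 of 389 epithelial cells held 89.5% of the Cxcl10 UMIs, and 1 cell had 140. In tumour 2, 21 of 412 cells held 92.7% of the Cxcl10 UMIs, with at most 20 in 1 cell. Of the cells with Cxcl10, 29 in tumour 1 and 16 in tumour 2 had 1 UMI, and 19 and 7 had 5 or more.

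Shares of cells depend on depth, so each cell was also thinned to 1000 UMIs. Of epithelial cells at 2 weeks, 26.8% (24.3 to 29.5) had a Cxcl9 UMI and 18.5% after thinning, 13.0% had a Cxcl10 UMI and 7.18% after thinning, and 23.7% had an Ido1 UMI and 9.87% after thinning. B cells of the 5 months library, gated by Cd79a, showed Cxcl9 in 0 and Ido1 in 0 of 513 cells. Their median was 2119 UMIs, against 4118.5 in the epithelial gate at 2 weeks, and the zeros allow up to 0.585% of cells. The kept cells of that library held 109 Cxcl9 and 8 Ido1 UMIs, against 3317 and 746 at 2 weeks. Its B cells therefore cannot measure free RNA of these 2 genes at 2 weeks. The 2 weeks library itself held 1 cell in the B cell gate. Of its 160 cells in no gate, at a median of 4411.5 UMIs, 13.75% had a Cxcl9 UMI, 13.75% a Cxcl10 UMI and 0.625% an Ido1 UMI. After thinning these shares were 10.8%, 9.49% and 0%. What these cells are was not tested. Cxcl16, with a UMI in 27.4%, 42.6%, 54.0% and 43.2% of epithelial cells from 2 weeks to tumour 2, came to 8.26%, 11.2%, 8.23% and 10.7% after thinning. Among B cells of 5 months the thinned share was 0.975%, and these cannot measure free RNA of Cxcl16 in the other libraries. Cells in no gate had a Cxcl16 UMI in 5.06%, 7.05%, 5.18% and 4.46% after thinning, in the same order of libraries.

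Epithelial cells of 2 weeks that had 1 of the interferon-inducible genes more often had another. After thinning to 1000 UMIs, Cxcl10 was seen in 26.7% of the 206 cells with Cxcl9 and in 2.75% of the 908 cells without it. Ido1 was seen in 24.8% of cells with Cxcl9 and in 6.498% of cells without it. Ido1 and Cxcl10 were less closely joined, with Ido1 in 20% of the 80 cells with Cxcl10 and in 9.09% of those without. Cxcl16 was seen in 17.0% of cells with Cxcl9 and in 6.28% of cells without it. These are cells of 1 library and are given as a description.

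Cells with Cxcl9 also had more RNA of interferon response genes, a list of 30 transcription factors, GTPases and antigen-processing genes that does not contain the chemokines. At 2 weeks the list summed to 7235 CPM in the 300 epithelial cells with a Cxcl9 UMI and to 2498 CPM in the 818 cells without, and 30 of 30 genes were higher in cells with Cxcl9. The GTPase Gbp2 had 1547 CPM in cells with Cxcl9 and 227 CPM in cells without. Median depth was 4704 UMIs in cells with Cxcl9 and 3957 in cells without. The same list summed to 8611 CPM in the 145 cells with Cxcl10 and 2973 CPM in those without, and to 6112 CPM in the 265 cells with Ido1 and 3073 CPM in those without.

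What set the Ido1 cells apart was their luminal markers. Progenitor markers summed to 157 CPM in cells with Ido1 and 2092 CPM in cells without, and 0 of the 6 were higher in cells with Ido1. The milk protein gene Csn3 had 15.9 CPM in cells with Ido1 and 856 CPM in cells without. Cells with Cxcl9 had 2347 CPM of progenitor markers against 1263 CPM in cells without, and cells with Cxcl10 had 3624 against 1187 CPM. Leukocyte markers summed to 1.98 CPM in cells with Cxcl9 and 1.90 CPM in cells without.

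By Pearson correlation over the 1118 epithelial cells of 2 weeks, on log-transformed counts per 10000 of 6922 genes, the genes most like Cxcl9 were Ubd (r = 0.71), Gbp2 (0.64), Cd74 (0.52), Cxcl10 (0.52) and Gbp4 (0.50). Ubd encodes a ubiquitin-like protein and Cd74 the invariant chain of antigen presentation. The cells share 1 library and differ in depth, and the values are a description.

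**Figure D3:**
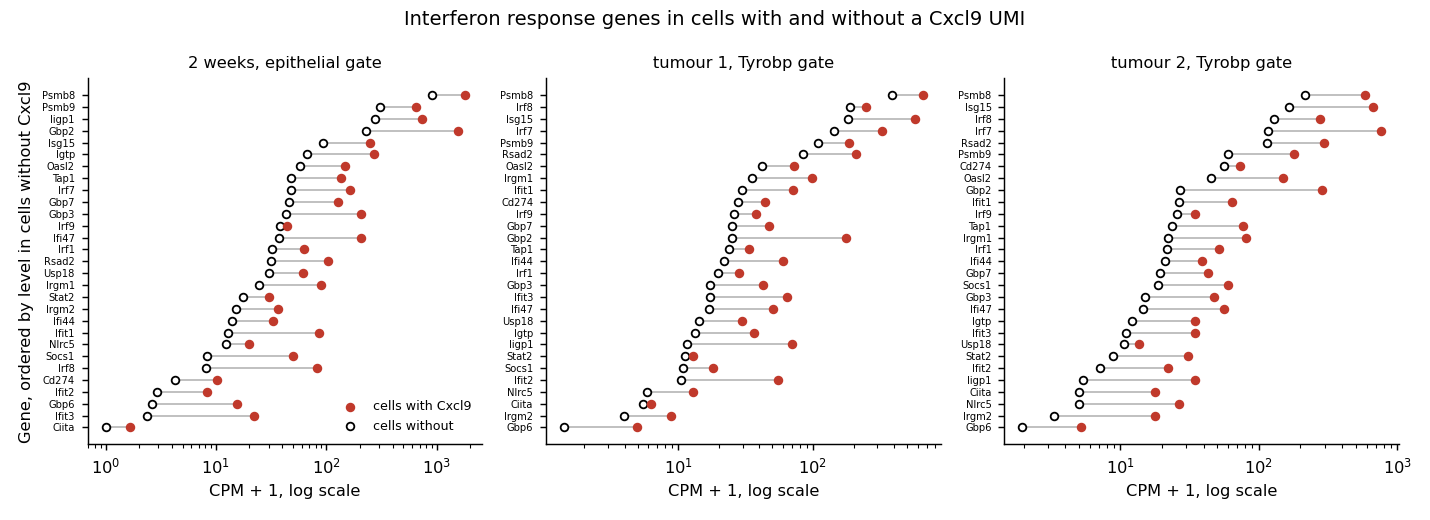
Interferon response genes, 29 of the 30 listed (y axis, ordered in each panel by level in cells without Cxcl9) in cells with a Cxcl9 UMI (red) and cells without (open), as CPM + 1 on a log axis, for the epithelial gate at 2 weeks and the Tyrobp gates of tumour 1 and tumour 2. Grey lines join the values of a gene. The 29 genes drawn lie to the right in cells with Cxcl9 in each panel, and the sums over the list were 7235 and 2498 CPM at 2 weeks, 3359 and 1548 CPM in tumour 1 and 4192 and 1210 CPM in tumour 2, for cells with Cxcl9 and cells without.

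Over the whole epithelial gate, 0 of 29 interferon response genes were called in tumours against 2 weeks and 0 of 29 against 5 months. Of all 12291 genes tested, 0.797% and 0.106% were called, so 0 of 29 is near the general share. The list had medians of -1.75 and -0.70 log2, against 0.05 and 0.06 over all genes tested. Between 5 months and 2 weeks, 12 of 21 were past 2-fold lower at 5 months and none higher, beside 12.9% of all genes past 2-fold lower and 16.2% higher, with a median of -1.40 against -0.01 over all genes. Among them were Gbp2 (-3.48), Gbp7 (-2.68) and Iigp1 (-2.65). The gene of interferon gamma, Ifng, had 0, 1, 0 and 0 UMIs in the epithelial gate from 2 weeks to tumour 2, while both chains of its receptor were read there, Ifngr1 at 29.6, 46.7, 27.7 and 43.4 CPM and Ifngr2 at 68.8, 53.5, 58.1 and 49.7 CPM. In the Cd3e gate Ifng had 1 UMI in tumour 1, 5 in tumour 2 and 78 at 5 months.

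Of 12 genes of interferon ligands and receptors, none of 8 tested was called in the epithelial gate in tumours against either earlier library. Of all 12291 genes tested, 0.797% were called against 2 weeks and 0.106% against 5 months. Past 2-fold higher at 5 months than at 2 weeks were 2 of 6 genes of the list, Tnf (+2.11) and Ifnar2 (+1.94). Of all genes, 16.2% were past 2-fold higher there. The other enzymes of tryptophan breakdown were nearly silent in epithelial cells, with 6, 0, 1 and 0 UMIs of Ido2 and none of Tdo2. Of 4 tryptophan pathway genes compared between 5 months and 2 weeks, the transporter genes Slc7a5 (+2.63) and Slc3a2 (+1.44) were higher at 5 months, and Ahr (-1.04), whose receptor kynurenine can activate, and Wars (-1.02), the tryptophan tRNA synthetase, were lower, beside 29.1% of all genes past 2-fold in either direction. None of 5 was called in tumours against 2 weeks or 5 months, beside the same 0.797% and 0.106% of all genes called.

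Interferon response genes were also set side by side in tumour epithelial cells with Cxcl10 and those without. In tumour 1, Ifit1, an antiviral interferon-induced gene, had 100.6 CPM in the 64 epithelial cells with Cxcl10 and 11.01 CPM in the 325 without, and Rsad2 had 56.3 and 2.95 CPM. In tumour 2, Ifit1 had 172 CPM in the 31 cells with Cxcl10 and 7.09 CPM in the 381 without. The interferon response list summed to 1728 CPM in cells with Cxcl10 and 961 CPM in cells without in tumour 1, with 27 of 30 genes higher, and to 1005 and 459 CPM in tumour 2, with 20 of 30 higher. Macrophage markers were lower in the Cxcl10 cells of tumour 1, at 304 CPM against 527 CPM in the cells without. The whole gate was used here, with cells that also met another gate. Of its Cxcl10 UMIs, 455 of 665 in tumour 1 and 114 of 137 in tumour 2 lay in cells of the epithelial gate alone. The part of the other cells in these differences was not tested.

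The next comparison asked which cells carried each gene once leukocytes were present. Cells in 1 gate alone were used, so that a cell counted in both gates could not blur the difference. Cxcl9 had 27.6 CPM in tumour 1, 35.7 in tumour 2 and 31.6 at 5 months in the Tyrobp gate, against 4.28, 0.895 and 1.03 CPM in the epithelial gate of the same libraries. In the same order, Cxcl16 had 829.6, 839.5 and 540.7 CPM in the Tyrobp gate, against 70.4, 108 and 143 CPM in the epithelial gate. Both were higher in the Tyrobp gate in 3 of 3 libraries.

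By edgeR with library as a block, Cxcl9 was higher in the Tyrobp gate by 4.23 on the log2 scale (SE 0.55, adjusted p = 0.00015) and Cxcl16 by 3.14 (SE 0.33, adjusted p = 3.53e-05). Cxcr3 was called higher too (adjusted p = 0.00173), from 35 UMIs over the 3 Tyrobp gates and none in the epithelial gates, which is at least 5.70-fold higher with a floor of 3 counts over the group. Cxcl10 was not called (log2 difference +0.82, SE 0.69, adjusted p = 0.414), with 58.2, 45.1 and 87.2 CPM in the Tyrobp gate of tumour 1, tumour 2 and 5 months against 92.8, 34.0 and 11.3 CPM in the epithelial gate. It was higher in the Tyrobp gate in 2 of 3 libraries and lower in tumour 1. Cxcr6 had a log2 difference of +2.51 (SE 0.95, adjusted p = 0.0645). The 3 calls of 5 genes tested stand beside 31.8% of 11027 genes called and 17.7% called higher, so a call was common here.

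A Cxcl9 UMI was seen in few cells of the Tyrobp gate. The share was 4.68% (3.79 to 5.70) of cells in tumour 1, 3.83% (2.60 to 5.42) in tumour 2 and 3.56% (2.36 to 5.14) at 5 months, and after thinning it was 1.66%, 1.28% and 1.32%. At 5 months, cells of the gate with Xcr1 or Clec9a, the markers of type 1 dendritic cells, had 84.7 CPM (58.7 to 118.4) of Cxcl9, while cells with C1q genes, the markers of tissue macrophages, had 35.1 CPM. The C1q cells of tumour 1 and tumour 2 had 26.0 and 47.8 CPM. The interferon response list was higher in cells with Cxcl9 in each library, at 3359 CPM with and 1548 CPM without in tumour 1, 4192 and 1210 CPM in tumour 2, and 4004 and 1699 CPM at 5 months.

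The highest correlations with Cxcl9 over Tyrobp gate cells were lower than over epithelial cells of 2 weeks. Cxcl9 was seen in 26.8% of those epithelial cells and in 3.56% to 4.68% of Tyrobp gate cells. The part of this detection in the lower values was not tested. Gbp2 led in tumour 1 (r = 0.34 over 1987 cells), followed by Dnase1l3 (0.30). Dnase1l3, a DNA-degrading enzyme gene, led in tumour 2 (0.43 over 784 cells), and Cxcl10 led at 5 months (0.24 over 758 cells).

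Cxcl16 by contrast was spread over most cells of the Tyrobp gate. A UMI was seen in 93.1% (91.9 to 94.2) of its cells in tumour 1, 60.8% (57.3 to 64.3) in tumour 2 and 46.8% (43.2 to 50.5) at 5 months, and after thinning in 52.0%, 39.7% and 26.3%. The share in B cells of 5 months was 1.36%, or 0.975% thinned. The 5% of cells with the most UMIs held 14.7% of the Cxcl16 UMIs in tumour 1, 20.3% in tumour 2 and 26.3% at 5 months.

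Within the gate Cxcl16 followed the macrophage and dendritic cells and not the neutrophils. Cells with C1q genes had 793 CPM in tumour 1, 1286 CPM in tumour 2 and 975 CPM at 5 months, and 94.5%, 97.7% and 88.1% of them had a UMI. Cells with Ccr7, Fscn1 and Ccl22, the markers of mature dendritic cells, had 366, 551 and 749 CPM in the same libraries. In tumour 2, the 250 cells with S100a8 and S100a9, the markers of neutrophils, had 33.9 CPM and 12.4% of them had a UMI. In tumour 2 the genes most correlated with Cxcl16 were Cd74 (r = 0.80), Ctss (0.78) and H2-Aa (0.78), genes of antigen presentation. At 5 months Cd63 (0.63) led, and Zmynd15, the gene that overlaps Cxcl16, reached 0.49.

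Tumours were compared with 5 months in the Tyrobp gate. Cxcl16 had 750.0 CPM (736.4 to 763.9) in tumour 1 and 766 CPM (743 to 789) in tumour 2, against 495 CPM (470 to 521) at 5 months, a log2 difference of +0.50 (SE 0.32, adjusted p = 0.562 by edgeR). Cxcl9 had 25.2 and 31.4 CPM in tumours against 31.6 CPM at 5 months, and Cxcl10 had 65.7 and 45.8 CPM in tumours against 74.4 CPM at 5 months, with log2 differences of -0.28 (adjusted p = 0.783) and -0.53 (adjusted p = 0.627) by edgeR. Cxcr3 had 1.05 and 1.83 CPM in tumours against 5.93 CPM at 5 months, and Cxcr6 had 1.77 and 3.67 CPM in tumours against 13.2 CPM at 5 months, with adjusted p = 0.398 and adjusted p = 0.330 by edgeR.

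None of these 5 genes was called, and edgeR called 0% of 11839 genes, with 1410 at an unadjusted p under 0.05, while DESeq2 called 232 genes. T cell markers in the Tyrobp gate summed to 5.32 CPM in tumour 1, 61.1 CPM in tumour 2 and 275 CPM at 5 months, and natural killer cell markers to 1.25, 1.65 and 14.5 CPM. They moved with the receptor levels, and their part in these was not tested. Within C1q cells alone the Cxcl16 log2 difference was -0.03 (SE 0.38, adjusted p = 0.987 by edgeR).

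The Cxcl10 level of the leukocytes at 5 months was set beside that of cells gated as B cells. A Cxcl10 UMI was seen in 6.99% of Tyrobp gate cells and 4.49% of Cd3e gate cells, against 5.26% of B cells, at median depths of 3455, 2081 and 2119 UMIs, and after thinning in 3.69% and 2.28% against 2.53%. The level was 74.4 and 44.5 CPM against 70.5 CPM (57.1 to 86.0) in B cells, where it came from 96 UMIs in 27 cells. Of the Cxcl10 UMIs of that library, 36.1% lay in the Tyrobp gate alone, 28.2% in the Cd3e gate alone and 15.7% in B cells. C1q cells of 5 months, at 142 CPM, stood above the B cell level.

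**Figure D4:**
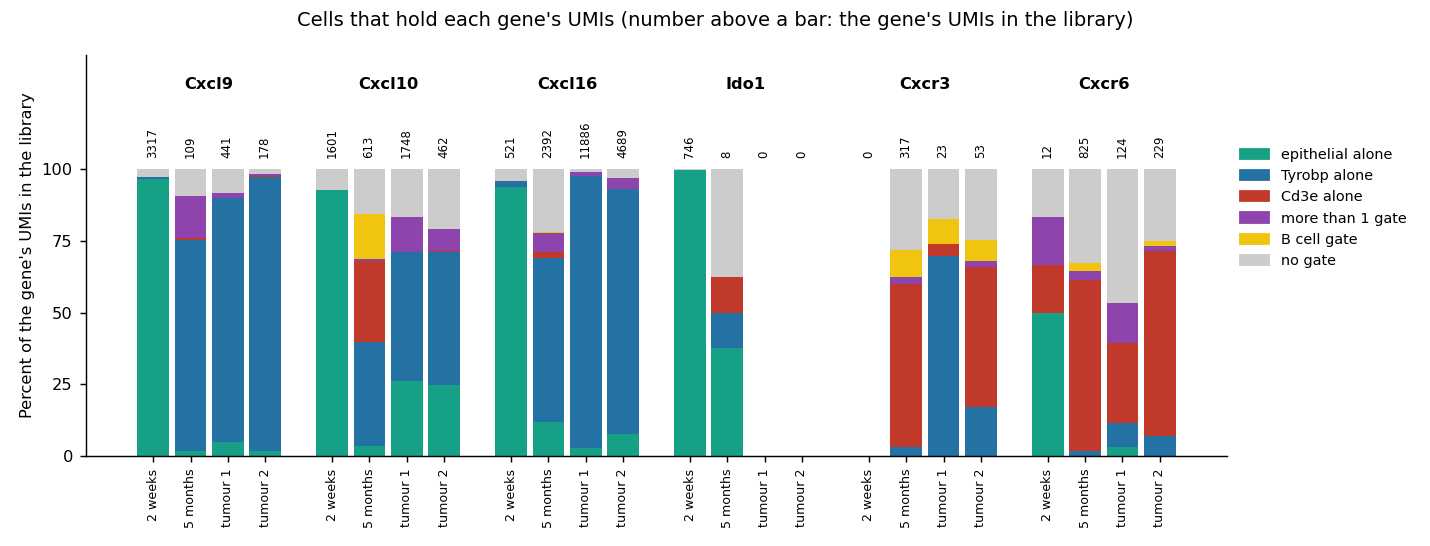
Percent of each gene's UMIs in a library (y axis) that lay in cells of 1 gate alone, of more than 1 gate, of the B cell gate or of no gate, for the 6 genes and 4 libraries (x axis), with the gene's UMIs in the library above each bar. At 2 weeks the epithelial gate holds 96.7% of Cxcl9, 92.9% of Cxcl10 and 99.9% of Ido1 UMIs; the Tyrobp gate holds 85.03% and 95.5% of Cxcl9 and 94.7% and 85.3% of Cxcl16 in tumour 1 and tumour 2. Ido1 has 8 UMIs at 5 months and none in the tumours.

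The source of each gene's RNA in a library followed from these levels and from how many cells of each gate were loaded. At 2 weeks the epithelial gate, with 86.9% of the cells, held 96.7% of the 3317 Cxcl9 UMIs, 92.9% of the 1601 Cxcl10 UMIs, 93.9% of the 521 Cxcl16 UMIs and 99.9% of the 746 Ido1 UMIs. In the later libraries Cxcl9 lay mostly in the Tyrobp gate, with 85.03% of 441 UMIs in tumour 1, 95.5% of 178 in tumour 2 and 73.4% of 109 at 5 months. Cxcl10 was divided in the tumours, where the Tyrobp gate alone held 45.2% and 46.5% and the epithelial gate alone 26.0% and 24.7%. Of the cells, the Tyrobp gate alone held 74.0% in tumour 1, 41.8% in tumour 2 and 14.8% at 5 months. The epithelial gate alone held 12.4% of the cells in tumour 1 and 21.6% in tumour 2.

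Ido1 had no UMI among the kept cells of the tumours and 8 at 5 months, where the 120 cells with mature dendritic markers held 1. Il4i1, which encodes another enzyme that acts on tryptophan, had 2.30 CPM in the Tyrobp gate of tumour 1, 2.38 in tumour 2 and 55.3 at 5 months. It was higher in the Tyrobp than in the epithelial gate (log2 difference +4.55). With Haao, Ahr (+1.63) and Slc3a2 (+1.00) it was 1 of 4 called higher among 6 tryptophan pathway genes tested within libraries. Of all 11027 genes tested, 17.7% were called higher.

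Other genes of the same pathways were set beside these in the Tyrobp gate against the epithelial gate. Of the interferon response genes, 8 of 29 were called higher and none lower, beside 17.7% of all genes called higher and 14.1% lower, with a median of 0.97 log2 against 0.04 over all genes, led by Irf8 (+5.55), Cd274 (+4.73), Rsad2 (+3.90) and Ciita (+3.44). Of the interferon ligands and receptors, 7 of 9 were called higher, beside the same 17.7%, with Ifnar1 (+2.79), Ifngr1 (+2.63), Ifnar2 (+1.87) and Tnf (+1.86) in front. Of 10 tested T cell-attracting ligands outside the set, 6 were called higher, beside that 17.7%, led by Ccl22 (+7.42) and Cxcl13 (+6.03), and 2 were called lower, Ccl20 (-4.63) and Cx3cl1 (-2.71). Adam17, a protease gene of membrane proteins, was higher (+2.61), 1 of 3 tested among genes of chemokine processing and scavenging. In tumours against 5 months, 0 of 29 interferon response genes and 0 of 9 other ligands were called in the Tyrobp gate. In that fit 0% of all 11839 genes were called.

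Receptor levels were higher in the Cd3e gate than in the Tyrobp gate. In cells of 1 gate alone, Cxcr6 had 402 CPM in tumour 1, 304 in tumour 2 and 144 at 5 months in the Cd3e gate, against 0.737, 3.36 and 4.73 CPM in the Tyrobp gate of the same libraries. In the same order, Cxcr3 had 11.5 CPM, from 1 UMI, 53.4 and 52.8 CPM in the Cd3e gate, against 1.18, 1.89 and 3.94 CPM in the Tyrobp gate. Cxcl16 had 23.0, 16.4 and 15.3 CPM in the Cd3e gate, far under its levels of 540.7 to 839.5 CPM in the Tyrobp gate. Each direction held in 3 of 3 libraries.

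As a share of all UMIs of the gene, the Cd3e gate alone held 28.2% of Cxcr6 in tumour 1, 64.6% in tumour 2 and 59.6% at 5 months, and 4.35%, 49.1% and 56.8% of Cxcr3. In tumour 1, with 24 cells in the Cd3e gate and 1987 in the Tyrobp gate, 16 of the 23 Cxcr3 UMIs lay in the Tyrobp gate alone. Cells that met none of the gates held 46.8% of the Cxcr6 UMIs in tumour 1, 24.9% in tumour 2 and 32.7% at 5 months. They made up 9.72%, 25.7% and 34.5% of the cells. A T cell with no Cd3e UMI is not counted in the Cd3e gate, and how many of these cells are T cells was not tested.

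In the Cd3e gate, Cxcr6 was higher by 6.48 (SE 0.67, adjusted p = 9.88e-05) and Cxcr3 by 3.89 (SE 0.53, adjusted p = 0.00109) on the log2 scale than in the Tyrobp gate, by edgeR with library as a block. Cxcl9 (log2 difference -5.76, adjusted p = 0.00104) and Cxcl16 (log2 difference -5.73, adjusted p = 1.74e-05) were lower by the same test. Cxcl10 was not called (log2 difference -1.40, adjusted p = 0.256 by edgeR). The 4 calls of 5 genes stand beside 16.1% of 11027 genes called, 4.77% higher and 11.3% lower. Of 7 other T cell chemokine receptors tested, none was called higher and 3 lower in the Cd3e gate. The median log2 difference over all genes was -0.07.

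A Cxcr6 UMI was seen in 66.7% (44.7 to 84.4) of 24 Cd3e gate cells in tumour 1, 37.5% (29.4 to 46.2) of 136 in tumour 2 and 16.6% (14.6 to 18.6) of 1359 at 5 months, at median depths of 5271, 3896 and 2081 UMIs. After thinning to 1000 UMIs the shares were 20.8% (7.13 to 42.2), 22.1% (15.4 to 29.97) and 9.57% (8.05 to 11.3). In B cells of 5 months it was 2.73%, or 1.75% thinned. The tumour 2 share stayed above that of 5 months with no overlap of intervals, and the tumour 1 share, from 5 of 24 cells, overlapped it.

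Cxcr3 was seen in 4.17% of Cd3e gate cells in tumour 1, 1 of 24, in 14.0% in tumour 2 and in 10.2% (8.67 to 11.96) at 5 months, and after thinning in 0%, 2.94% (0.807 to 7.36) and 4.27% (3.26 to 5.48). B cells of 5 months showed 3.31%, or 1.36% thinned. The levels of Cxcr3 were 6.52 CPM in tumour 1, 37.3 CPM in tumour 2 and 47.0 CPM at 5 months, and those of Cxcr6 were 326, 209 and 130 CPM. By edgeR, Cxcr6 differed by +0.89 (SE 0.55, adjusted p = 0.959) and Cxcr3 by -0.83 (SE 0.57, adjusted p = 0.998) on the log2 scale, and neither difference passed.

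**Figure D5:**
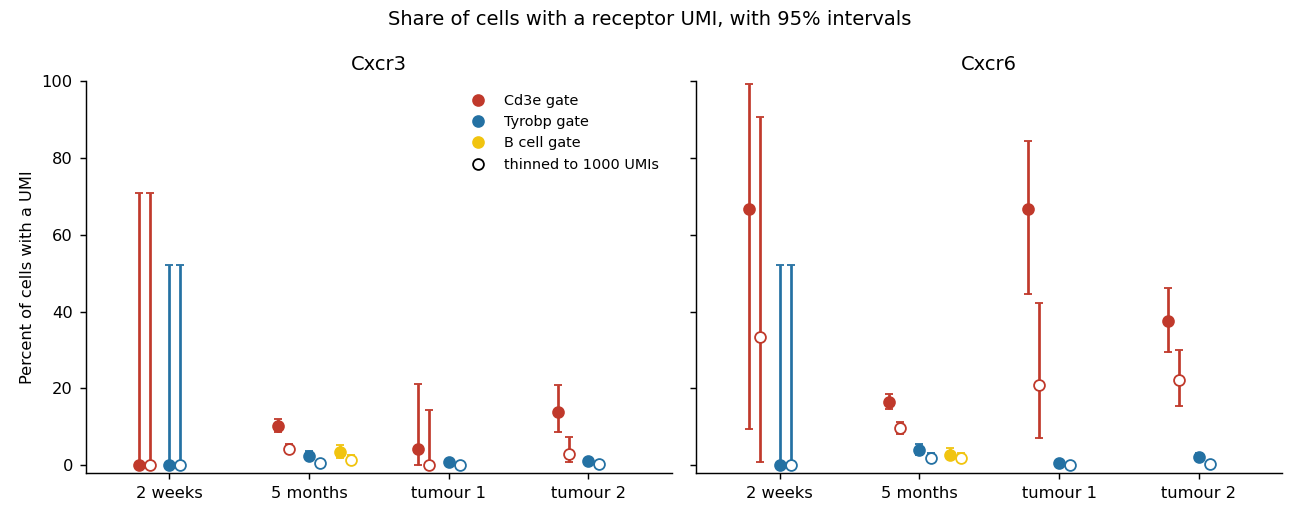
Percent of cells with a Cxcr3 or Cxcr6 UMI (y axis) in the Cd3e, Tyrobp and B cell gates of each library (x axis; the B cell gate is drawn for 5 months alone), unthinned (filled) and after thinning to 1000 UMIs (open), with 95% Clopper-Pearson intervals. At 2 weeks the Cd3e and Tyrobp gates hold 3 and 5 cells. Cxcr6 is seen in 66.7%, 37.5% and 16.6% of Cd3e gate cells of tumour 1, tumour 2 and 5 months, and in 20.8%, 22.1% and 9.57% after thinning, against 2.73% and 1.75% of B cells.

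The ligands read in the Cd3e gate did not move together. Cxcl10 was lower in tumours than at 5 months but did not pass (log2 difference -1.65, SE 0.64, adjusted p = 0.300 by edgeR). Cxcl9 had 0 and 1.38 CPM in tumour 1 and tumour 2 against 4.25 CPM at 5 months. Cxcl16 and the macrophage markers were higher in both tumours than at 5 months, but their order between the tumours was opposite. Cxcl16 had 182 CPM in tumour 1 and 222 CPM in tumour 2 against 52.4 CPM at 5 months in that gate (log2 difference +1.86, SE 0.58, adjusted p = 0.0711 by edgeR), beside the macrophage marker sums of 7053 and 2368 against 1002 CPM. In Cd3e gate cells that met no other gate the levels were 23.0 and 16.4 CPM in the tumours and 15.3 CPM at 5 months, and without cells of more than 1 gate the log2 difference was +0.15 (adjusted p = 1.00 by edgeR). With stricter gates it passed (+2.87, adjusted p = 0.000874 by edgeR), beside 69 of 5645 genes called. That fit kept cells of more than 1 gate. Of its Cd3e gate cells, 8 of 11 in tumour 1, 53 of 61 in tumour 2 and 471 of 490 at 5 months met no other gate. In the reported fit none of 4 genes tested was called, beside 1.69% of 7092 genes called, 1.13% higher and 0.564% lower. Of other T cell chemokine receptors, Cx3cr1 was higher (+3.98, adjusted p = 6.83e-05 by edgeR) and Ccr7, the lymph node homing receptor, lower in tumours (-1.89, adjusted p = 0.0204 by edgeR), 2 of 5 tested. This fit kept Cd3e gate cells that also met the Tyrobp rule, 7 in tumour 1, 22 in tumour 2 and 91 at 5 months. Both genes were also higher in the Tyrobp than in the epithelial gate (Cx3cr1 +5.01, Ccr7 +5.28). The part of myeloid RNA in these 2 differences was not tested.

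T cells with Cxcr6 differed in their other RNAs from those without. At 5 months, markers of naive T cells, such as Lef1, summed to 243 CPM in the 225 cells with Cxcr6 and 596 CPM in the 1134 without, and 0 of 4 were higher in cells with Cxcr6. The integrin gene Itgae, known from resident T cells, had 79.2 CPM in cells with Cxcr6 and 34.8 CPM in cells without. Ifng had 34.5 and 15.8 CPM, and Cxcr3 69.0 and 41.6 CPM. Markers of other cell types moved with this split. Macrophage markers summed to 376 CPM in cells with Cxcr6 and 1155 CPM in cells without, neutrophil markers to 3.83 and 208 CPM, and mature dendritic markers, which include Ccr7, to 270 and 612 CPM. Their part in it was not tested.

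In tumour 2, naive markers summed to 199 CPM in the 51 cells with Cxcr6 and 319 CPM in the 85 without, and Ccr7 had 66.4 and 281 CPM. Cd4 had 115 CPM in cells with Cxcr6 and 20.1 CPM in cells without, and Cd8a 39.8 and 147 CPM. Beside these, neutrophil markers summed to 518 CPM in cells with Cxcr6 and 3633 CPM in cells without, macrophage markers to 1004 and 2988 CPM, and mature dendritic markers to 75.2 and 330 CPM. In tumour 1, with 16 cells with Cxcr6 and 8 without, naive markers summed to 19.7 and 193 CPM and macrophage markers to 5745 and 9608 CPM. The part of these markers in the tumour values was not tested. Cxcr3 cells of 5 months differed less from the rest, with naive markers at 445 CPM in cells with Cxcr3 and 540 CPM in cells without, and interferon response genes at 1451 and 1438 CPM. After thinning, Cxcr3 was seen in 6.15% of 5 months T cells with Cxcr6 and 4.07% of those without.

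By T cell subset, Cxcr6 in tumour 2 had 537 CPM (367 to 758) in the 13 cells with Cd4, 44.7 CPM (17.97 to 92.1) in the 34 with Cd8 genes and 56.9 CPM (28.4 to 101.9) in the 23 with Foxp3, the gene of regulatory T cells, while the 66 cells with none of these had 321 CPM (262 to 390). At 5 months the same subsets had 140, 102, 59.6 and 155 CPM. The lead of Cd4 cells over Cd8 cells was thus seen in tumour 2 from few cells. In tumour 1, 12 cells with Cd8 genes had 309 CPM and 12 with none of these genes had 339 CPM. Cxcr3 lay between 40.9 and 59.0 CPM in the subsets of 5 months.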

How the data were processed

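RNA of single cells was captured with the Chromium 3' version 2 chemistry, per the labels' protocols, and read into counts with Cell Ranger on the genome build mm10 (GRCm38), as the submitters' processing notes name them; its version and any use of strand are not given in the sources used here. What the authors deposited are UMI counts per gene and cell barcode, not normalized. Library totals were 6722044 (2 weeks), 15060411 (5 months), 23736366 (tumour 1) and 13061942 (tumour 2) UMIs.

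Kept cells had 500 genes or more and no more than 10% of UMIs from mitochondrial genes. Doublets were scored with Scrublet in scanpy 1.11.5; its automatic threshold called 4, 0, 0 and 8 cells and was not used, and the highest scores were removed at 0.8% per 1000 barcodes (15, 181, 57 and 25 cells). The B cell gate needed at least 2 UMIs of Cd79a and none of Cd3e or Tyrobp. Gates rest on few counts, so cells under the thresholds are missed: of the 4487 cells kept at 5 months, 2057 met none of the 3 gates.

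Counts were summed per library and gate and tested with edgeR 4.0.16 (R 4.3.3; filterByExpr, TMM, quasi-likelihood F test, Benjamini-Hochberg adjustment over all tested genes, threshold 0.05). Epithelial sums of the 4 libraries entered 1 fit with 3 groups, Tyrobp and Cd3e sums of tumours and 5 months 1 fit each; gates were compared within libraries over 9 sums with library as a block, leaving out cells in more than 1 gate. With 2 tumours and lone earlier libraries, a lone library is assumed to vary as the tumours do. The 2 weeks and 5 months libraries were set side by side with no test. The biological coefficient of variation was 0.297 to 0.368. The test was first tried on simulated data. Levels between genes were not compared, since 3' tags are caught with unequal efficiency.

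The genes and gene lists were chosen with earlier results of these data known. All 7 named genes were taken up; the genes most like one of them are the 10 with the highest Pearson correlation over cells among genes seen in 5% of cells, and examples from a list are its called members with the 4 largest differences; some genes that this rule names are not reported here. Alternatives were other scalings (DESeq2 factors, library size alone), DESeq2 1.42.0, no low-count filter, doublets kept, stricter cell filters and gates, other handling of gate overlap, each library left out, no block, and thinning to 1000 UMIs. Progenitor-marker and C1q-positive cells alone were added after seeing the data.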

Additional observations from a re-analysis of the deposited data

Results flagged for a closer look

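Tumours and 5 months differed in opposite directions between gates for 3 genes. Each value is the log2 ratio of tumour over 5 months with 1 CPM added, and the differences between gates were not tested. Cxcl10 had 3.14 and 1.66 in the epithelial gate of tumour 1 and tumour 2, but -0.18 and -0.69 in the Tyrobp gate. Cxcl16 had -1 and -0.54 in the epithelial gate, 0.6 and 0.63 in the Tyrobp gate and 1.78 and 2.06 in the Cd3e gate. In Cd3e cells that met no other gate, Cxcl16 had 23.0 and 16.4 CPM in the tumours and 15.3 CPM at 5 months. Cxcr6 had -2.35 and -1.6 in the Tyrobp gate but 1.32 and 0.68 in the Cd3e gate, beside the T cell markers of the Tyrobp gate, at 5.32 and 61.1 CPM in the tumours and 275 CPM at 5 months.

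Some signal lay in leukocytes of the 2 weeks library, which was sorted for YFP and used in the epithelial comparisons alone. Its 5 Tyrobp gate cells held 13 UMIs of Cxcl9 and 10 UMIs of Cxcl16, and its 3 Cd3e gate cells held 4 UMIs of Cxcr6.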

How the results depend on the processing

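Of 343 log2 differences recomputed under alternatives, 311 counted as unchanged. These kept their direction and their side of the threshold or, where an alternative allowed no test, lay within 1 SE of the reported value. Of the 343, 6 changed sign: in the epithelial gate Cxcl16 in tumours against 2 weeks (+0.0203 with doublets kept, +0.16 without tumour 1) and Cxcl9 in tumours against 5 months (-0.44 and -0.0135), and in the Tyrobp gate Cxcl16 in C1q-positive cells (-0.034) and Cxcl9 with stricter gates (+0.36). The count of called genes of the set changed from 2 to 0 with doublets kept and to 1 in progenitor-marker cells (epithelial, tumours against 2 weeks), from 0 to 2 with no low-count filter (epithelial, tumours against 5 months), from 0 to 1 with no low-count filter (Tyrobp gate, Cxcr6, adjusted p = 0.0207 by edgeR) and from 0 to 1 with stricter gates (Cd3e gate). The other 65 of 70 such counts moved little or not at all. Over alternatives, called genes ranged from 0 to 1239 (98 in the reported fit), 0 to 565 (13), 0 to 743 (0), 24 to 126 (120), 2375 to 4458 (3510) and 979 to 2462 (1773), in the order of the tested comparisons. Leaving out 1 library, Cxcl9 in tumours against 2 weeks lay between -8.56 and -6.83, Cxcr3 in tumours against 5 months (Cd3e gate) between -2.87 and -0.37, and Cxcr6 and Cxcl10 in the Tyrobp against the epithelial gate between 1.65 and 4.43 and between 0.19 and 1.65. Without the 5 months library Cxcl10 was called lower in the Cd3e than in the Tyrobp gate (-3.96, adjusted p = 0.000234 by edgeR), and Cxcr6 was called higher in the Tyrobp than in the epithelial gate under 7 of 12 alternatives.

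Scaling by library size alone moved the median of all genes to -0.15 (5 months against 2 weeks), 0.20 and 0.12 (tumours against 5 months, Tyrobp and Cd3e gates), -0.30 (Tyrobp against epithelial gate) and 0.13 (Cd3e against Tyrobp gate). It gave 252 higher and 181 lower calls in tumours against 2 weeks (46 and 52 as reported), 748 and 1070 at 5 months against 2 weeks (954 and 758), 1533 and 2507 for Tyrobp against epithelial gate (1955 and 1555) and 834 and 1079 for Cd3e against Tyrobp gate (526 and 1247).

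Thinning to 1000 UMIs lowered the shares of cells at 2 weeks to 18.5% (Cxcl9), 7.18% (Cxcl10), 8.26% (Cxcl16) and 9.87% (Ido1), those of Cxcl16 in the Tyrobp gate to 52.0%, 39.7% and 26.3% in tumour 1, tumour 2 and 5 months, of Cxcr6 in the Cd3e gate to 20.8%, 22.1% and 9.57%, and of Cxcr3 there to 2.94% in tumour 2 and 4.27% at 5 months. Keeping doublets moved none of 12 shares beyond its interval. Tumours and earlier libraries were not paired, since the labels do not link them by animal. Without the library block, the within-library fits called 2575 and 1149 genes and again 3 and 4 of the set.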

Other observations

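Ccl5, a chemokine that draws T cells, was read in epithelial cells beside the chemokines above. It had 272 CPM at 2 weeks, 71.9 at 5 months, 109 in tumour 1 and 38.2 in tumour 2. At 2 weeks it had 730.3 CPM in epithelial cells with Cxcl9 and 83.3 CPM in cells without, and 971 CPM in cells with Cxcl10 and 138 CPM in cells without. In tumour 1 it had 474 CPM in the 64 epithelial cells with Cxcl10 and 7.28 CPM in the 325 without, and in tumour 2 94.4 CPM in the 31 with and 33.5 CPM in the 381 without. These cells come from 1 library each, those of the tumours include cells that also met another gate, and the differences were not tested.

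Type I and type III interferon genes were read in few molecules. Ifnb1 had 13 UMIs in the Tyrobp gate of tumour 1, 39 in tumour 2 and none at 5 months, and 1 UMI in epithelial cells at 2 weeks. The epithelial gate at 2 weeks also held 7 UMIs of Ifnl3 and 2 of Ifnl2.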
